A study of Mus musculus with 12 samples.

Results

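The genes described here are *Cxcl1*, *Cxcl2*, *Cxcl3* and *Cxcl5*, which encode chemokines that attract neutrophils, and *Cxcr2*, which encodes their receptor. They were picked by gene name, with earlier results of these data known, and are 5 of 37082 genes on the array. RNA of cecum tissue from C57BL/6 mice, all labelled male, was measured on 12 1-colour Agilent arrays, 3 biological replicates per group. The surgical model burns the cecal surface (cauterization) so that fibrous adhesions form, and tissue was taken 3 h, 12 h or 72 h later. The control was a sham operation without cauterization, which the study's methods place at the time of the operation, so that no sham sample matched the 3 h, 12 h or 72 h groups in time. The labels name no transgene, deletion or drug for any group and give no age, and whether each sample came from 1 mouse is not stated.

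Chemokines of this family carry a Glu-Leu-Arg sequence before their first cysteines and bind CXCR2, a receptor coupled to G proteins on the neutrophil surface. Injured epithelium, stroma, mesothelium and myeloid cells make the ligands under the control of NF-κB, and neutrophils move towards the source. Neutrophils carry *Cxcr2* mRNA themselves and also make *Cxcl2*. The arrays read whole tissue, in which more cells of a type and more RNA per cell cannot be told apart.

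The promoters are shown because those of *Cxcl1*, *Cxcl2* and *Cxcl3* share letters that the promoter of the receptor lacks. RefSeq sequence of build GRCm38.p6 was at hand for 4 of the 5 genes, all on the plus strand. Each line gives the 110 bases before the annotated start, at chr5:90891135-90891244 for *Cxcl1*, chr5:90903789-90903898 for *Cxcl2*, chr5:90785991-90786100 for *Cxcl3* and chr1:74153884-74153993 for *Cxcr2*. Capitals mark the runs of at least 8 letters that the 3 ligand promoters have in common, GGGAATTTCCC, of the type that NF-κB binds, and ATAAAAGG, a TATA-like stretch.
Cxcl1: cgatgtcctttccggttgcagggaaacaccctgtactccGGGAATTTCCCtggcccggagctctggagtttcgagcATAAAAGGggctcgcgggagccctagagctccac
Cxcl2: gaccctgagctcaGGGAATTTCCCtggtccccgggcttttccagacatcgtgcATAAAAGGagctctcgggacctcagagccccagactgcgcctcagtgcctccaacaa
Cxcl3: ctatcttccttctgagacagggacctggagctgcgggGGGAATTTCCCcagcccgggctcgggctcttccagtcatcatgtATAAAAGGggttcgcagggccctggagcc
Cxcr2: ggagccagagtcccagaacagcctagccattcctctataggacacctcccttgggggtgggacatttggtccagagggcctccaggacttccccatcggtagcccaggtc

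GGGAATTTCCC began 71 bases before the start of *Cxcl1*, 97 before that of *Cxcl2* and 73 before that of *Cxcl3*. ATAAAAGG began 34, 57 and 29 bases before the start of the same genes. Among 32851 mouse promoters of 300 bases, searched on both strands, 0.0426% held GGGAATTTCCC and 1.76% held ATAAAAGG. The 3 that held both were these ligand promoters. The usual TATA letters, TATAAA, were searched as well, were held by 13.6% of promoters and overlapped ATAAAAGG in *Cxcl3*. The runs were taken from these promoters themselves after reading them, so their presence is a description and not a test.

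Each gene had 1 probe of 60 bases. In build mm9, as the scanner files give it, the probes lie at chr5:91322080-91322139 (*Cxcl1*, NM_008176), chr5:91334534-91334593 (*Cxcl2*, NM_009140), chr5:91216694-91216753 (*Cxcl3*, NM_203320), chr5:91190490-91190549 (*Cxcl5*, NM_009141) and chr1:74206886-74206945 (*Cxcr2*, NM_009909). No exon was assigned to them here. The ligands are close paralogs, but the longest run of letters shared by any pair of the probes was 7 bases of 60. Matches to the full transcripts of the paralogs were not tested.

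Levels are the log2 intensity minus the array's 75th percentile, so that 0 is the 75th percentile of all probes on that array. Levels of different probes are not compared, except to say which markers weigh most in a summed level. Replicate arrays correlated at 0.986 to 0.994, and 60.2% to 65.2% of probes were well above background. The arrays of sham and 3 h and replicates 1 and 2 of 12 h were on slide 1, and replicate 3 of 12 h and all of 72 h on slide 2. Against the label, the *Xist* probe was well above background on 12 of 12 arrays, *Ddx3y* and *Eif2s3y* on 0 and *Uty* on 1. Of 6 *Kdm5d* probes, the brightest was above background on 12 arrays and the others on 0. The label on sex thus goes against most of these probes in each of the groups, and all results below rest on these arrays.

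All 5 genes rose after cauterization and were still raised after 72 h, and none of the cauterized arrays overlapped sham. In sham tissue *Cxcl2*, *Cxcl3* and *Cxcr2* were well above background on 0 of 3 arrays, whereas *Cxcl1* and *Cxcl5* were measured on 3 of 3. Genes past a 2-fold change whose limma p, adjusted over all probes, stayed below 0.05 were called. By this rule 5 of 5 genes were called higher in each comparison with sham. Of all genes, 3.26% were called higher and 4.11% lower at 3 h, while the shares for 12 h were 4.1% and 4.96% and those for 72 h 4.55% and 4.3%. The share of all genes whose 3 arrays all lay above sham was 28.8%, 15.3% and 12.7% in the same order.

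**Figure D1:**
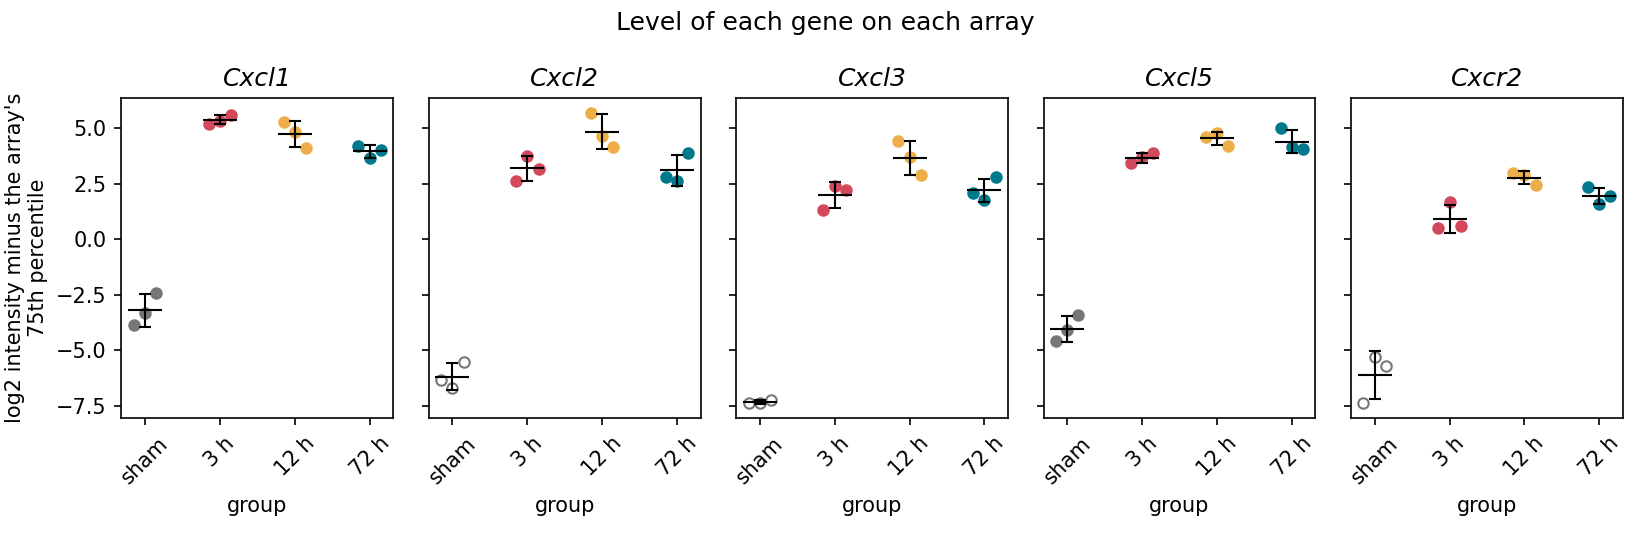
Level of each gene on each array by group, as log2 intensity minus the array's 75th percentile; open points were not well above background, and bars show the mean and SD of 3 arrays. The cauterized arrays lie above the sham arrays for every gene, and *Cxcl1* is at its highest mean at 3 h while the other genes are at theirs at 12 h.

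*Cxcl1* encodes the chemokine known as KC, an early product of injured tissue. Its levels were -3.88, -3.32 and -2.43 on the sham arrays and 5.19, 5.33 and 5.6 at 3 h. The 12 h arrays read 5.29, 4.83 and 4.12, and those of 72 h read 4.19, 3.64 and 4.03. The 3 h arrays were thus the closest together and had the highest mean, and the 72 h arrays lay below all 3 of the 3 h group. The log2 difference from sham was 8.58 ± 0.37 (SE, n = 3, limma adjusted p = 2.83e-06) at 3 h, a 383-fold change. It was 7.96 (adjusted p = 3.05e-06) at 12 h and 7.16 (adjusted p = 6.82e-06) at 72 h.

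*Cxcl2* encodes MIP-2, a chemokine made in quantity by macrophages and by neutrophils themselves. Its sham levels of -6.35, -6.71 and -5.52 were not well above background. At 3 h the levels were 2.62, 3.76 and 3.18, and at 12 h they were 5.70, 4.66 and 4.15. At 72 h they were 2.78, 2.61 and 3.89, which overlaps the 3 h arrays. All 3 arrays of 12 h lay above every array of 3 h and of 72 h. As the sham level is only a bound, *Cxcl2* was at least 295-fold higher at 3 h (limma adjusted p = 8.38e-06), at least 927-fold at 12 h (adjusted p = 2.77e-06) and at least 278-fold at 72 h (adjusted p = 6.92e-06). The bound sets the mean of the cauterized arrays against, on each sham array, the dimmest signal that counted as well above background.

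*Cxcl3* encodes the neighbouring paralog, another CXCR2 ligand. The sham levels of -7.37, -7.40 and -7.25 lay together at the bottom of the scale. The 3 h arrays read 1.33, 2.4 and 2.23, those of 12 h read 4.4, 3.72 and 2.87, and those of 72 h read 2.06, 1.77 and 2.78. As with *Cxcl2*, the 12 h arrays lay above those of the other times. *Cxcl3* was at least 129-fold higher than sham at 3 h (limma adjusted p = 2.83e-06), at least 412-fold at 12 h (adjusted p = 1.63e-06) and at least 149-fold at 72 h (adjusted p = 4.62e-06).

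*Cxcl5* encodes LIX, which epithelial and stromal cells make. Its levels were -4.61, -4.08 and -3.43 in sham and 3.42, 3.69 and 3.88 at 3 h. At 12 h they were 4.62, 4.79 and 4.19, and at 72 h they were 4.99, 4.14 and 4.06. The later arrays lay above all those of 3 h and overlapped each other. The log2 difference from sham was 7.70 ± 0.33 (SE, n = 3, limma adjusted p = 2.83e-06) at 3 h, 8.57 (adjusted p = 1.72e-06) at 12 h and 8.43 (adjusted p = 4.62e-06) at 72 h. In its own measurements after the operation, the study reports significant induction of *Cxcl2* but not of *Cxcl1* or *Cxcl5*, unlike the arrays. The source of that difference was not tested.

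*Cxcr2*, the receptor, read -7.36, -5.29 and -5.70 in sham, where no array was well above background. It read 0.51, 1.65 and 0.59 at 3 h. The 12 h arrays read 2.98, 2.89 and 2.44, and those of 72 h read 2.33, 1.58 and 1.94. The 12 h arrays lay above those of the other times, and 1 array of 3 h lay among those of 72 h. *Cxcr2* was at least 61.3-fold higher than sham at 3 h (limma adjusted p = 3.13e-05), at least 221-fold at 12 h (adjusted p = 6.75e-06) and at least 125-fold at 72 h (adjusted p = 1.35e-05).

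Background correction by normexp, which adds an offset of 50 to every spot and so lifts dim spots most, lowered the differences without ending a call. In order of time the fitted log2 differences from sham were then 6.7, 6.12 and 5.36 for *Cxcl1*, 5.02, 6.71 and 5.02 for *Cxcl2*, 3.95, 5.63 and 4.25 for *Cxcl3*, 5.17, 6.05 and 5.99 for *Cxcl5*, and 2.96, 4.72 and 3.94 for *Cxcr2*. For *Cxcl2*, *Cxcl3* and *Cxcr2* these lie below the bounds given above (7.78-fold against at least 61.3-fold for *Cxcr2* at 3 h), so the bounds hold on the scale without an offset. The 72 h and sham arrays shared no slide, and a slide term rests on replicate 3 of 12 h, the only array of its group on slide 2. With slide as a block the 72 h differences were 8.10 for *Cxcl1* and 8.95 for *Cxcl5*, and all 5 genes were still called (adjusted p up to 0.00305), while the calls over all genes went from 3282 to 1152.

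After 3 h fewer differences passed the test. From 3 h to 12 h, *Cxcl3* rose by 1.68 ± 0.40 (SE, n = 3, limma adjusted p = 0.0318) and *Cxcr2* by 1.85 ± 0.50 (adjusted p = 0.0474) on the log2 scale. These were 2 of 5 genes, while 1.89% of all genes were called higher and 1.56% lower. For 4 of 5 genes the 12 h arrays lay wholly above the 3 h arrays, as they did for 10.8% of all genes. The difference was 1.65 for *Cxcl2* (adjusted p = 0.0689), 0.87 for *Cxcl5* (adjusted p = 0.138) and -0.62 for *Cxcl1* (adjusted p = 0.322), none of them called. On the slide that held 3 h and 2 arrays of 12 h, the difference was 2.08 for *Cxcl3* (adjusted p = 0.0281) and 2.02 for *Cxcr2* (adjusted p = 0.132). The call for *Cxcr2* was lost in 9 of the 12 fits without 1 array. That for *Cxcl3* was lost in 5 of them, without any 1 array of 3 h and without replicate 1 or 2 of 12 h. Over all 12 fits, those that kept the call included, values ran from 1.65 to 2.22 for *Cxcr2* and from 1.31 to 2.08 for *Cxcl3*.

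From 12 h to 72 h, *Cxcl2* fell by 1.74 ± 0.49 (SE, n = 3, limma adjusted p = 0.0358) and *Cxcl3* fell by 1.46 ± 0.40 (adjusted p = 0.0324) on the log2 scale. These were 2 of 5 genes, while 3.19% of all genes were called lower and 4.33% higher. For 3 of 5 genes, these and *Cxcr2*, the 72 h arrays lay wholly below the 12 h arrays, as they did for 24.1% of all genes. The difference was -0.82 for *Cxcr2* (adjusted p = 0.298), -0.80 for *Cxcl1* (adjusted p = 0.176) and -0.14 for *Cxcl5* (adjusted p = 0.79). The array of 12 h that shared a slide with 72 h had the lowest level of its group for all 5 genes. On that slide alone the difference was -1.05 for *Cxcl2* (adjusted p = 0.392) and -0.67 for *Cxcl3* (adjusted p = 0.424), and neither was called. That slide held 1 array of 12 h, assumed to vary like the others, and calls over all genes went from 2789 to 17 there. Both calls were also lost without replicate 1 or 2 of either time. Over all 12 fits without 1 array, those that kept the call included, values ran from -2.14 to -1.31 for *Cxcl2* and from -1.86 to -1.1 for *Cxcl3*.

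Between 3 h and 72 h, *Cxcl1* fell by 1.42 ± 0.37 (SE, n = 3, limma adjusted p = 0.0168) on the log2 scale, the 1 gene of 5 called, while 5.51% of all genes were called lower and 6.19% higher. Its arrays did not overlap, as for 41.6% of all genes in that direction, and those of *Cxcl5* lay apart in the other, as for 15.5%. No slide held both times, and with slide as a block the difference was -0.48 (adjusted p = 0.659). Without replicate 3 of 3 h it was not called either (adjusted p = 0.0534). The other differences were -0.09 for *Cxcl2* (adjusted p = 0.903), 0.21 for *Cxcl3* (adjusted p = 0.706), 0.73 for *Cxcl5* (adjusted p = 0.103) and 1.03 for *Cxcr2* (adjusted p = 0.127). Their 95% intervals ran from -1.19 to 1.01 for *Cxcl2* and from -0.69 to 1.12 for *Cxcl3*, so changes of up to about that size in either direction cannot be told from none. The median of all genes differed by -0.26 between these times and by -0.14 between sham and 72 h, and the gene differences are read relative to it.

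**Figure D2:**
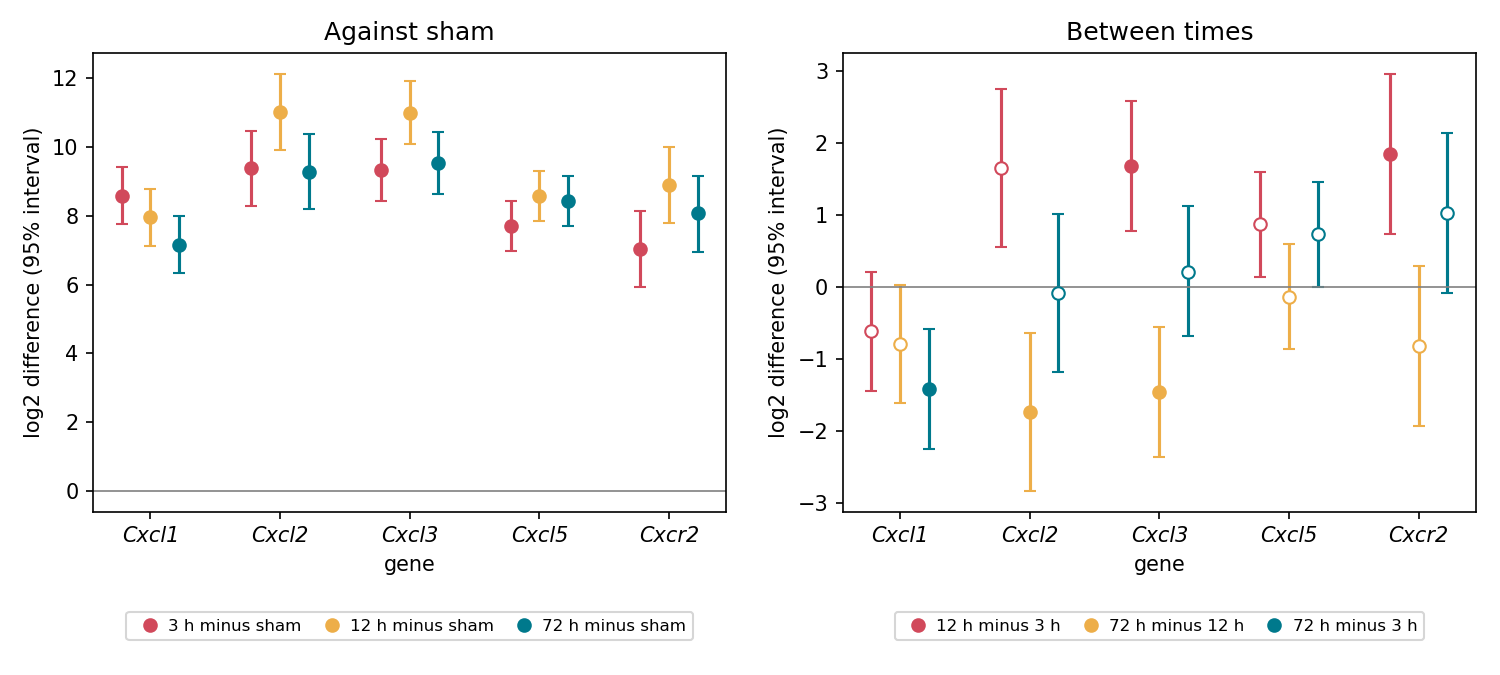
Fitted log2 differences with 95% intervals for each gene, against sham on the left and between times on the right, where the size against sham of *Cxcl2*, *Cxcl3* and *Cxcr2* is a fitted value against sham arrays not above background; filled points were called (fold change above 2, limma adjusted p below 0.05). All differences from sham are filled, and between times *Cxcl3* and *Cxcr2* at 12 h minus 3 h, *Cxcl2* and *Cxcl3* at 72 h minus 12 h, and *Cxcl1* at 72 h minus 3 h are.

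The members were also set against each other on the same arrays, as the change of one gene minus that of another. From 3 h to 12 h the change of *Cxcl1* minus that of *Cxcl2* was -2.27 on the log2 scale, with values of -2.30 against *Cxcl3*, -1.49 against *Cxcl5* and -2.48 against *Cxcr2*. For *Cxcl2* against *Cxcl3* the value was -0.03, and for *Cxcl5* against *Cxcr2* it was -0.98. With 3 arrays against 3, the exact two-sided permutation test cannot go below p = 0.1, and over the 30 tests of 10 pairs in 3 comparisons the smallest adjusted p was 0.25, so no pair passed.

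*Cxcl5*, *Cxcl3*, *Cxcl1* and *Cxcl2* lie within 144 kb of each other on chromosome 5, beside other chemokine genes. *Ppbp*, which encodes a further CXCR2 ligand stored in platelets, lies 8.5 kb from the *Cxcl5* probe and was on 0 sham arrays above background. It was at least 9.29-fold higher at 3 h (limma adjusted p = 9.23e-06), at least 23.1-fold at 12 h (adjusted p = 2.27e-06) and at least 20.5-fold at 72 h (adjusted p = 4.62e-06). *Pf4*, which encodes platelet factor 4 and lacks the Glu-Leu-Arg sequence, rose by 1.91, 1.81 and 2.57 on the log2 scale at the 3 times in order. *Cxcl15*, which encodes the lung chemokine lungkine, was above background on 0 of 12 arrays. Of the chemokine genes measured here that are not members, *Ppbp* and *Pf4* were thus called higher at each time and *Cxcl15* was not. Of all genes, 3.26%, 4.1% and 4.55% were called higher at the 3 times.

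**Figure D3:**
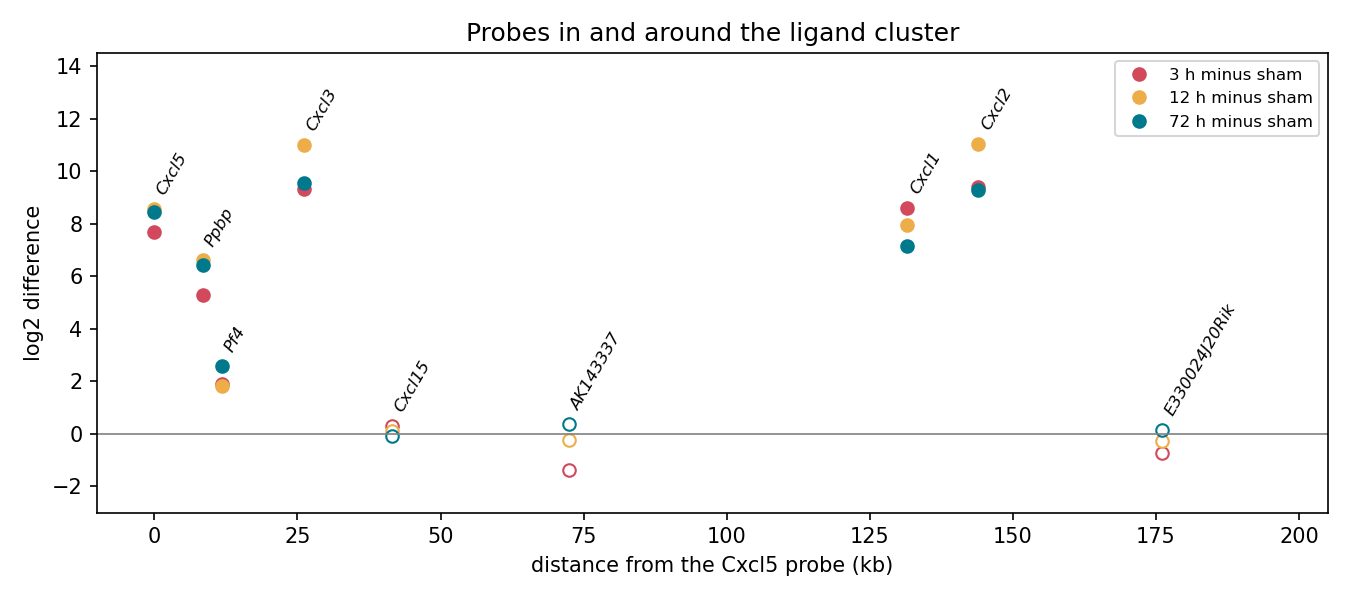
Log2 difference from sham at each time for the probe that stands for each gene, against the distance in kb from the *Cxcl5* probe; filled points were called. *Cxcl5*, *Ppbp*, *Pf4*, *Cxcl3*, *Cxcl1* and *Cxcl2* are raised, and *Cxcl15*, *AK143337* and *E330024J20Rik* lie near or below 0. *Mthfd2l* is not drawn, as its probes in this stretch do not stand for the gene. Its probe 239.1 kb from that of *Cxcl5* differed from sham by 0.99, 1.13 and 0.78 in order of time and was called at 12 h. The other *Mthfd2l* probes there were not called against sham.

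Other genes of the CXCR2 axis rose in part. Of 25 genes for further ligands, receptors and signalling proteins, 6 were called higher and 1 lower at 3 h, 9 higher at 12 h and 8 higher at 72 h. The median log2 difference was 0.22, 0.44 and 0.34, beside 0.08, -0.01 and -0.14 over all genes. *Fgr*, a Src-family kinase of myeloid cells, rose by 3.40 on the log2 scale at 12 h. *Pik3r5*, the regulatory subunit of the PI3-kinase that G proteins drive, rose by 2.15. *Cxcr1*, which encodes the sister receptor, was at least 4.42-fold higher at 12 h and at least 7.10-fold at 72 h. The 1 gene called lower was *Gng2*, a G protein subunit, with -1.03 at 3 h. At the 3 times 18, 16 and 17 of the genes did not pass the test. The count of 7 called at 3 h was 3 with normexp and 4 without sham replicate 1, and that of 8 at 72 h was 5 with slide as a block.

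Of 26 inducers and regulators of the ligands, 16, 17 and 13 were called higher at the successive times and 0 lower, with 5 rather than 13 at 72 h when slide was a block. Their median log2 difference was 1.32, 1.61 and 0.98. *Il1b* rose by 6.74, 8.35 and 7.36 on the log2 scale, and *Tnf* by 2.65, 4.46 and 2.61. *Il17a* was on 0 sham arrays above background and was at least 3.08-fold, 7.33-fold and 12.8-fold higher. Among the factors that switch the ligands on or off, *Cebpb* rose by 3.25, *Tnfaip3* by 3.10 and *Nfkbia* by 2.29 at 12 h. *Nfkbia* and *Tnfaip3* encode inhibitors of NF-κB, and *Cebpb* encodes a transcription factor of acute inflammation. From 3 h to 12 h, 4 of the 26 were called higher, and from 12 h to 72 h 8 were called lower.

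Of 13 genes for other neutrophil attractants and their receptors, 10, 11 and 11 were called higher and 0 lower, with medians of 2.08, 3.99 and 3.06. *Ccl3*, a chemokine for neutrophils and monocytes, rose by 7.26, 9.41 and 7.35 on the log2 scale. *Csf3*, which encodes the growth factor that releases neutrophils from marrow, was at least 32.6-fold, 75.6-fold and 10.9-fold higher. The receptors for formyl peptides, *Fpr1* and *Fpr2*, rose by 7.11 and 6.16 at 12 h, and *C5ar1*, the receptor for complement C5a, by 4.63. *Lta4h*, an enzyme of leukotriene B4 synthesis, was not called at any time.

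Of 14 other CXC chemokines and receptors, 4, 3 and 2 were called higher and 0 lower, beside 3.26%, 4.1% and 4.55% of all genes called higher. Their medians were 0.32, 0.49 and 0.52, beside 0.08, -0.01 and -0.14 over all genes. At 3 h the median was 0.16 with *Cxcl17*, above background on 0 sham and 0 3 h arrays, set to 0. At 3 h those called were *Cxcl10* (2.55), *Pf4* (1.91), *Cxcl14* (1.26) and *Cxcl16* (1.06). *Cxcl9*, a lymphocyte attractant, was called at 12 h (2.11). *Cxcl12* and its receptor *Cxcr4* were not called against sham at any time, with values against sham of -0.65, -0.25 and 0.94 for *Cxcl12* and 0.29, 1.27 and 1.12 for *Cxcr4*. *Cxcl12* was called higher at 72 h than at 12 h (1.19) and than at 3 h (1.59). The count of 3 at 12 h was 1 without replicate 2 of 12 h and 5 when any probe of a gene was read, and that of 2 at 72 h was 4 without replicate 3 of 72 h and 4 with any probe.

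**Figure D4:**
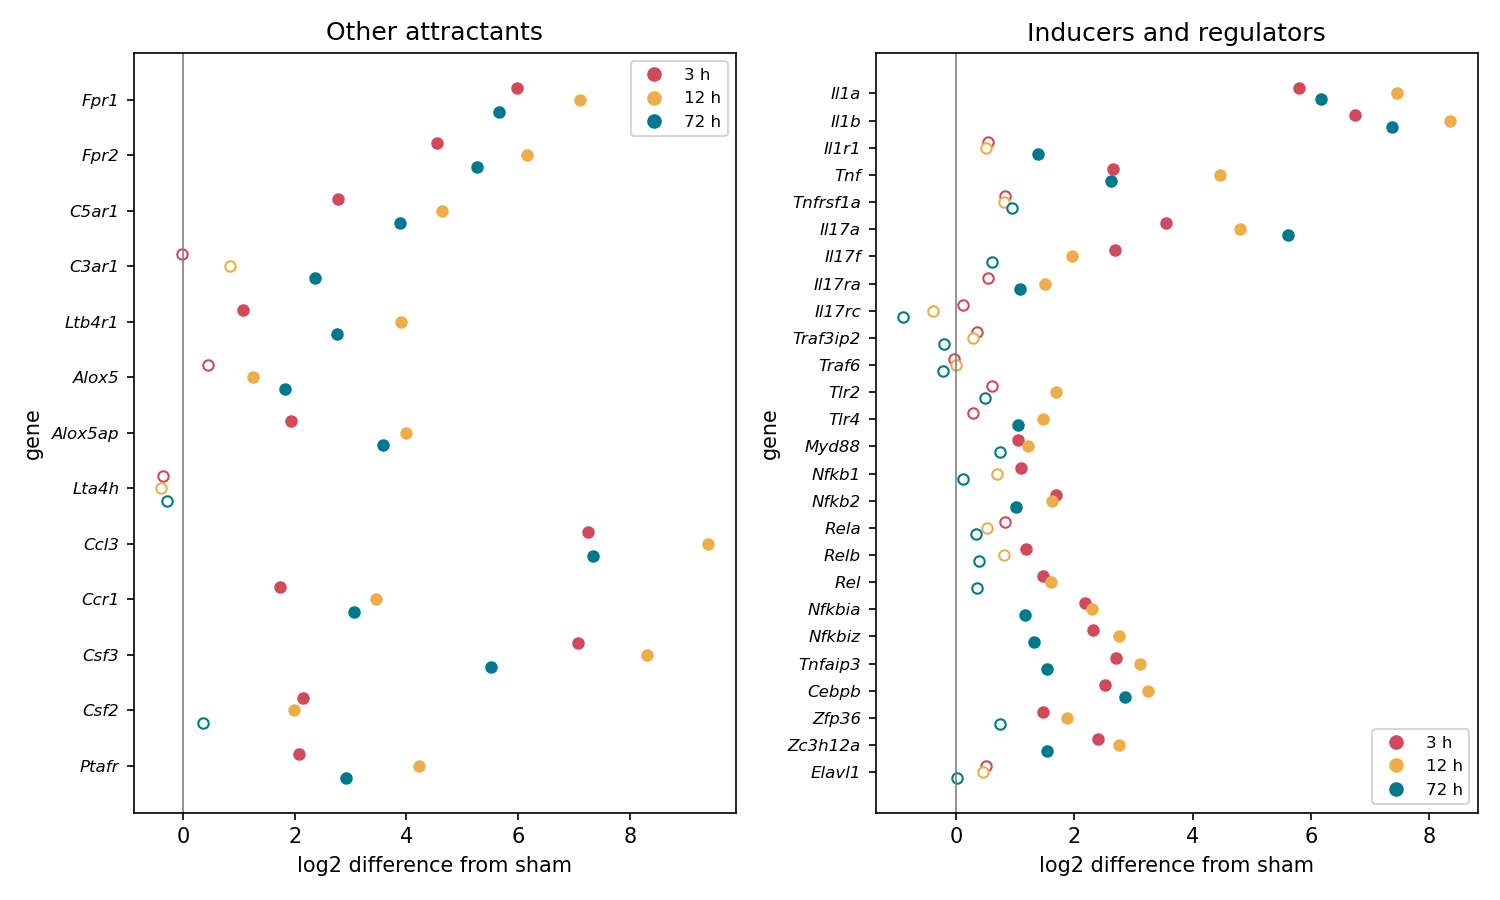
Log2 difference from sham of 13 genes for other neutrophil attractants and their receptors and of 26 inducers and regulators of the ligands, at the 3 times after cauterization; filled points were called. Most attractants are at their highest difference at 12 h, and no filled point lies below 0.

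Neutrophil markers rose with the members, with fewer past the test at 72 h than at 12 h. Of 14 markers, 7, 11 and 8 were called higher in order of time (5 rather than 8 with slide as a block), and 0 lower, with medians of 1.72, 3.3 and 2.46. Their summed level, in units of the array's 75th percentile, was 84.0 to 95.2 in sham, 363 to 601 at 3 h, 828 to 867 at 12 h and 354 to 644 at 72 h. The sum adds unlogged levels, so the brightest markers weigh most. In sham the highest mean log2 level was that of *Csf3r* (6.37), followed by *Ly6g* and *Trem1* (1.12 each). At 12 h the highest were *S100a9* (8.93) and *S100a8* (7.8). *S100a9*, a neutrophil granule and cytosol protein, went from -1.92 ± 1.07 (SD, n = 3) in sham to 8.14 ± 0.42, 8.93 ± 0.04 and 8.15 ± 0.38. *Ly6g*, the surface protein used to identify mouse neutrophils, went from 1.12 ± 1.39 in sham to 4.73 ± 0.20 at 3 h and 4.77 ± 0.18 at 12 h and read 1.05 ± 0.54 at 72 h, where its log2 difference from sham was -0.08 (adjusted p = 0.931). At 72 h the 5 members were still called higher. *Ngp* and *Ltf*, granule genes of maturing neutrophils, were above background on 0 sham arrays and were not called at 72 h. *Mpo*, another granule gene, was called against sham only at 72 h (log2 difference 2.99) and was higher there than at 12 h (2.16, limma adjusted p = 0.00462). It was the 1 marker called higher from 12 h to 72 h, while 3 were called lower. *Mmp9* and *Cd177* differed from sham by 3.38 and 2.75 at 12 h and by 3.67 and 3.09 at 72 h. *Csf3r*, the receptor for the *Csf3* product, had levels of 6.37 ± 0.11 in sham and 5.93 to 6.03 afterwards and was not called at any time, and neither was *Elane*, a granule enzyme. The part of neutrophil number in the levels of *Cxcr2* and *Cxcl2* was not tested.

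**Figure D5:**
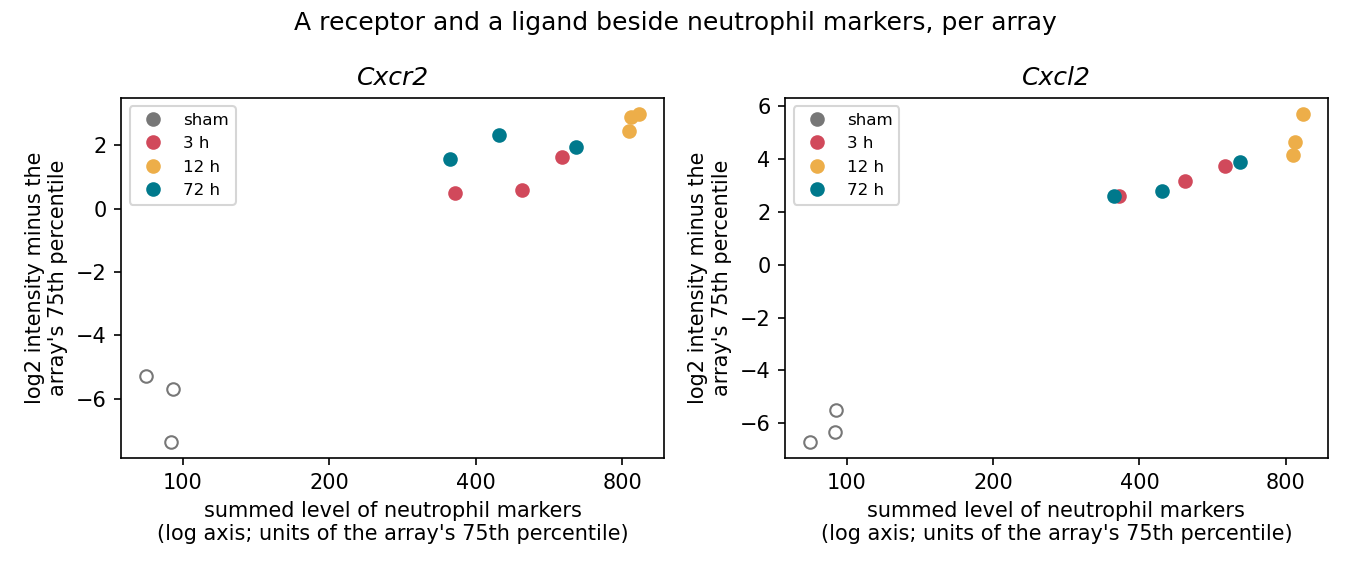
Level of *Cxcr2* and of *Cxcl2* on each array (log2 intensity minus the array's 75th percentile) against the summed level of 14 neutrophil markers on a log axis; open points were not well above background. Sham arrays sit at 84.0 to 95.2 on the marker axis and the 12 h arrays at 828 to 867, with 3 h and 72 h between them. The sum adds unlogged levels, so *Csf3r* weighs most in sham and *S100a9* at 12 h.

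Markers of other cells followed other courses. Macrophage markers summed to 42.7 to 44.9 in sham, 31.9 to 38.0 at 3 h, 42.1 to 45.4 at 12 h and 120 to 135 at 72 h, with 0, 3 and 9 of 11 called higher and 2, 1 and 0 lower. Fibroblast markers summed to 160 to 172 in sham and 92.0 to 99.3 at 12 h, and to 420 to 940 at 72 h, with 0, 0 and 5 of 6 called higher and 0, 4 and 0 lower. Mesothelium markers summed to 4.84 to 6.37 in sham, 10.2 to 12.8 at 3 h, 15.9 to 18.5 at 12 h and 21.7 to 32.7 at 72 h, with 1, 1 and 4 of 7 called higher and 2, 2 and 0 lower. Their fitted median at 3 h and 12 h was -0.93 and -0.83. It was 0 at both times once genes above background in neither group were set to 0 and partly measured genes to their bounds. The sum leans on *Pdpn*, whose mean level was 1.59 in sham, 3.33 at 3 h and 3.91 at 12 h. Epithelium markers, which define the cecal lining, were all above background in sham and summed to 2290 to 2460 there, 2960 to 3220 at 3 h, 2190 to 2660 at 12 h and 1290 to 1720 at 72 h, with 1, 0 and 0 of 12 called higher and 0, 1 and 2 lower. Smooth muscle markers summed to 548 to 583 in sham and 173 to 276 at 12 h, and of the 8, 2, 8 and 6 were called lower and 0 higher. Of 7 endothelium markers 4 were called higher at 72 h and 0 before, and of 5 lymphocyte markers 0 were called at any time, at which their medians were -1.15, 0.1 and -1.03. The part of these shifts in the members' levels was not tested.

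The genes whose course over the 12 arrays lay closest to each member were found from the root mean square difference of levels, each centred on its own mean. For *Cxcl2* these were *Clec4e* (0.46), *S100a9* (0.65) and *S100a8* (0.78), and for *Cxcl3* *Clec4e* (0.48), *S100a9* (0.65) and *Gm5483* (0.72). *Clec4d* was nearest to *Cxcl5* (0.45), before *Gm10872* (0.60) and *Il1b* (0.63), and to *Cxcr2* (0.46), before *Il1b* (0.47) and *Hdc* (0.52). *Clec4d* and *Clec4e* encode C-type lectins of myeloid cells and *Hdc* encodes histidine decarboxylase. *Cxcl1* had other neighbours, *Il6* (0.71) and *Serpinb2* (0.74), before *Clec4d* (0.87). Among the members, *Cxcl2* and *Cxcl3* were 0.29 apart and *Cxcl5* and *Cxcr2* 0.57, while *Cxcl1* was 0.83 or more from each. Centred on the sham mean, *S100a9* (0.71) came before *Clec4e* (0.74) for *Cxcl3*, and *Gm5483* and *Serpinb2* replaced the third gene for *Cxcl2* and *Cxcl5*. After quantile normalization *Il1b* and *Clec4d* (0.42 each) were level for *Cxcr2* and *Hdc* replaced *Il1b* for *Cxcl5*. These distances describe 12 arrays in 4 groups, sham included, and a gene with several probes was read from its nearest probe.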

How the data were processed

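RNA of 12 cecum samples was hybridised to 1-colour Agilent mouse arrays. The authors deposited the scanner output, with a background-subtracted intensity per spot (Agilent Feature Extraction 11.5.1.1, probe coordinates on mm9). They also deposited log2 values made in GeneSpring, set to the 75th percentile of each array and, as the values show, centred on each row's median. Here, control spots and outlier spots were left out, spots of a probe were averaged, and log2 intensity minus each array's 75th percentile over 56605 probes was computed, which correlated with the deposited log2 values at 0.99997 after centring. Groups came from the labels. All 12 arrays entered 1 fit of 4 group means in limma 3.58.1 (R 4.3.3), with Benjamini-Hochberg adjustment over all probes, and a gene was read from its probe with the highest mean. Pairs of members were compared with two-sided exact permutation tests. The fit was tested on simulated data. Precision is limited by how many arrays there are. The study calls the samples of a group biological triplicates, and p-values measure the spread between them. Where no array of a group measured a probe, the fold change is given as a bound, and a log2 value printed for it is the fitted one. Alternatives changed the background correction, the scaling, the filter, the slide term, the blocks, the test and the arrays, and the deposited log2 values were also fitted.

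The members and lists were chosen with earlier results of these data known. The rule named the members, up to 5 genes per list with the largest difference and any called against its list, the 3 genes nearest each member, and the genes that check the label on sex. Other genes (such as *Lta4h*, *Cxcl12*, *Cxcr4*, *Cxcl15*, *Nfkbia*, *Csf3r*, *Ly6g*, *Elane*, *Ngp* and *Ltf*) were named after their values were seen. Lists were the other genes of the CXCR2 axis, inducers and regulators, other attractants, other CXC genes, and markers of neutrophils, macrophages, epithelium, mesothelium, smooth muscle, fibroblasts, endothelium and lymphocytes. Symbols are those of the array design. Figures were drawn with matplotlib 3.10.9 in Python 3.11.15.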

Additional observations from a re-analysis of the deposited data

Results flagged for a closer look

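A difference between 2 times after cauterization passed limma's test for 5 results. *Cxcl3* rose by 1.68 and *Cxcr2* by 1.85 from 3 h to 12 h, and from 12 h to 72 h *Cxcl2* differed by -1.74 and *Cxcl3* by -1.46 (log2 differences). *Cxcl1* differed by -1.42 from 3 h to 72 h. Of these, only *Cxcl3* from 3 h to 12 h kept its call with slide as a block. The slide term rests on replicate 3 of 12 h, the only array of its group on slide 2. For 12 h minus 3 h the block called 905 of all genes, as did the fit without that array, so these are not separate checks. Groups of 3 arrays are too small for a check of single outlying arrays.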

How the results depend on the processing

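Against sham, each of the 5 genes kept its call in 23 of 24 other fits at 3 h, 23 of 24 at 12 h and 22 of 23 at 72 h. In the fits that kept it, log2 differences ran from 2.96 to 11.4 and limma adjusted p went up to 0.00305. The exception is a t-test paired here by replicate number, which passed 5 of 5 genes at each time before adjustment and 0 after it. The study's methods name a paired t-test for 2 groups in general, but their array section names no test. This t-test called 0 of all 37082 genes in these comparisons, so its result says nothing about the 5 genes. Its fitted values, which for *Cxcl2*, *Cxcl3* and *Cxcr2* are not measured sizes since sham was not above background, in order of time and with adjusted p from 0.0907 to 0.173, were 8.58, 7.96 and 7.16 for *Cxcl1*, 9.38, 11.03 and 9.29 for *Cxcl2*, 9.33, 11 and 9.54 for *Cxcl3*, 7.7, 8.57 and 8.43 for *Cxcl5*, and 7.03, 8.89 and 8.07 for *Cxcr2*.

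Between times the calls changed with more settings. The t-test, which called 1 of all genes for 12 h minus 3 h and 0 in the others, passed 0 of the 5 and left uncalled *Cxcl3* (1.68) and *Cxcr2* (1.85) for 12 h minus 3 h, *Cxcl2* (-1.74) and *Cxcl3* (-1.46) for 72 h minus 12 h, and *Cxcl1* (-1.42) for 72 h minus 3 h. The fit of 2 groups alone lost *Cxcl3* in both of its comparisons (1.68 and -1.46) and *Cxcl2* (-1.74), leaving 1 gene called in the earlier and 0 in the later comparison. Quantile normalization lost *Cxcl1* for 72 h minus 3 h (-1.04, leaving 0) and *Cxcl2* for 72 h minus 12 h (-1.58, leaving 1), and turned the uncalled *Cxcl2* for 72 h minus 3 h (0.15) and *Cxcl5* for 72 h minus 12 h (0.09). *Cxcl2* for 72 h minus 3 h also turned with the percentile over probes above background (0.04), with normexp (0) and with slide as a block (0.94). *Cxcl2* for 12 h minus 3 h became called with normexp (1.69), with the filter on dim probes (1.65) and with limma's trend and robust options (1.65). With slide as a block, as on a slide alone, *Cxcr2* for 12 h minus 3 h (2.02, leaving 1), *Cxcl2* (-1.05) and *Cxcl3* (-0.67, leaving 0) for 72 h minus 12 h were not called and *Cxcl5* turned (0.2). The block also lost *Cxcl1* for 72 h minus 3 h (-0.48, leaving 0), where calls over all genes went from 4340 to 1152. The cause was not tested.

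Whether replicate numbers pair the samples was not settled by correlating deviations from group means, since these cancel within a group of 3 arrays. Of 18 same-numbered pairs, 6 correlated above 0.1 (range -0.404 to 0.264), and different-numbered pairs ranged from -0.296 to 0.385. With the replicate block *Cxcl3* (1.68 and -1.46), *Cxcr2* (1.85) and *Cxcl2* (-1.74) were not called, which left 0 genes in both comparisons. Without 1 array, the ranges were 1.31 to 2.08 for *Cxcl3* and 1.65 to 2.22 for *Cxcr2* (12 h minus 3 h), -2.14 to -1.31 for *Cxcl2*, -1.86 to -1.1 for *Cxcl3* and -0.44 to 0.03 for *Cxcl5* (72 h minus 12 h), and -1.54 to -1.26 for *Cxcl1*, -0.49 to 0.2 for *Cxcl2*, -0.11 to 0.43 for *Cxcl3* and 0.83 to 1.4 for *Cxcr2* (72 h minus 3 h), the last called once, without sham replicate 1. The number of genes called in these comparisons ran from 0 to 2 in each. In sham, *Cxcl2*, *Cxcl3* and *Cxcr2* lay under the lowest level well above background, -5.08 to -4.93.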
